A study of Rattus norvegicus with 34 samples.

Results

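The whole small intestine of the rat was compared with the intestinal villus, isolated from sections of the small intestine by laser microdissection, in 2 libraries measured on TaqMan card A. These are 2 of the 34 libraries of the series and 2 of its 17 libraries on card A. They were chosen by their labels, the whole tissue measured without preamplification and the villus after 12 cycles of preamplification. All samples came from Sprague-Dawley rats aged 4 weeks, of both sexes per the study's methods, with 1 library per tissue or compartment and card. Animals were not told apart in the labels. Total RNA was isolated with TRIzol from tissues and with the mirVana PARIS Kit from microdissected samples. Isolation, preamplification, and compartment therefore differed together between the 2 libraries and cannot be told apart within this pair. The lung with the bronchial gland, and the kidney with the proximal tubule and with the glomerulus, differ in the same technical ways and served as 3 reference pairs. The methods state that trachea was sectioned for microdissection, so the lung is not the organ that held the bronchial gland. The 2 kidney pairs share the kidney library.

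The villus is the finger-like projection of the intestinal mucosa. It is covered by absorptive enterocytes and mucus-secreting goblet cells and has a core of connective tissue with capillaries, a lymph vessel, and immune cells. The whole wall also holds the crypts, submucosa, smooth muscle layers, enteric nerves, and lymphoid tissue. miRNAs are short noncoding RNAs that repress messenger RNAs, and many are restricted to particular cell types. In such bulk samples, fewer cells of a type and less RNA per cell cannot be told apart.

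Each well of the card is the assay of a single RNA, and the value is *C*p, the cycle number at which the PCR signal passes a threshold. A lower *C*p means more template, and 3 cycles correspond to 8-fold at perfect doubling. The files number the 384 positions of the card without naming the miRNAs. Results are therefore given by position, no mature sequence is printed, and the identity of the tissue and villus could not be checked against marker miRNAs. *C*p above 35 was counted as undetected, which is the limit of the study, and wells without amplification are listed at 50. Differences are villus minus small intestine after the median *C*p over the positions detected in both was subtracted from each library. With 1 library each there is no replicate error and no test, and every count below describes these 2 libraries only.

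Small intestine had 239 detected positions and villus 221. At 4 repeated positions (11, 12, 35, and 36), left out of all comparisons, *C*p was from 17.46 to 17.97 in small intestine and from 15.51 to 16.04 in villus. Their SD was 0.244 cycles and 0.236 cycles, which gives the spread between wells of an abundant RNA only. In proximal tubule and glomerulus, 88.2% and 86.6% of the amplified wells lay within 0.05 cycles of a whole cycle, against 25.4% in small intestine and 15.0% in villus, so the kidney references are resolved in steps of about 1 cycle.

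Most of what was detected in one intestinal library was detected in the other, and the ranking of positions was similar. Without the repeated positions, 196 positions were detected in both, 39 only in small intestine, 21 only in villus, and 124 in neither. Of the 235 positions of small intestine, 83.4% were also detected in villus (95% Wilson confidence interval 78.1% to 87.6%, counting error only). Of the 217 positions of villus, 90.3% were also detected in small intestine (85.7% to 93.6%). Over the 196 shared positions the Spearman correlation of *C*p was 0.865, as a description across positions of 2 libraries. Among the 20 positions with the lowest *C*p in each library, 13 were the same, and among the lowest 50, 38 were the same. The villus correlated with small intestine (0.865) and with mammary gland (0.862, 196 positions) to nearly the same degree, then with bile duct (0.828, 189 positions). Its lowest correlations were with pancreas (0.388, 108 positions) and skeletal muscle (0.511, 179 positions). Villus and mammary gland were both microdissected and preamplified.

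Unscaled values came earlier in villus at 182 of the 196 shared positions (92.9%), with a median difference of -4.45 cycles, while the repeated positions differed by -1.84 cycles. In bronchial gland against lung the same values were -2.45 and -0.0372 cycles, in glomerulus against kidney -0.37 and 1.58 cycles, and in proximal tubule against kidney -0.014 and 0.59 cycles. The choice of scale thus changes how many positions appear higher in villus. After median scaling, 86 of the 196 positions (43.9%) lay within 1 cycle of each other, and the SD over positions was 2.43 cycles. A difference of at least 3 cycles was found at 27 positions (13.8% of the 196), of which 9 were earlier in villus (4.59%) and 18 later (9.18%). When each library was scaled to its repeated positions instead, 72 were earlier in villus and 8 later, and the median difference was -2.61 cycles. In the reference pairs a difference of at least 3 cycles was found at 20.1% of positions in bronchial gland against lung, 5.59% in proximal tubule against kidney, and 17.0% in glomerulus against kidney.

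**Figure D1:**
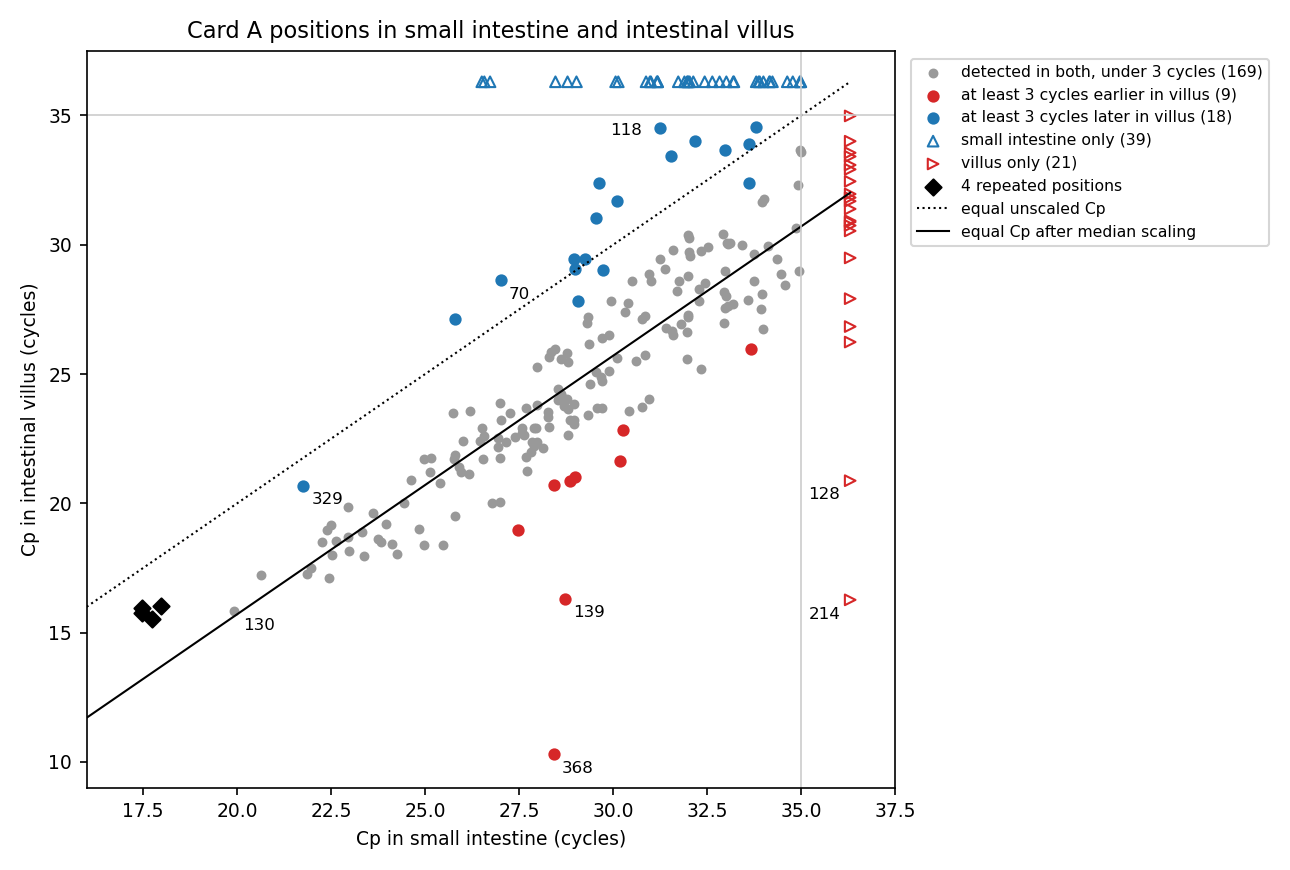
*C*p of each card A position in small intestine (horizontal axis, cycles) and intestinal villus (vertical axis, cycles), with open triangles for the 39 and 21 positions detected in only 1 library, drawn past the limit of 35. Most points follow the solid line of equal scaled *C*p, the 18 positions later in villus lie above it, and positions 368, 139, and 214 lie far below.

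**Figure D2:**
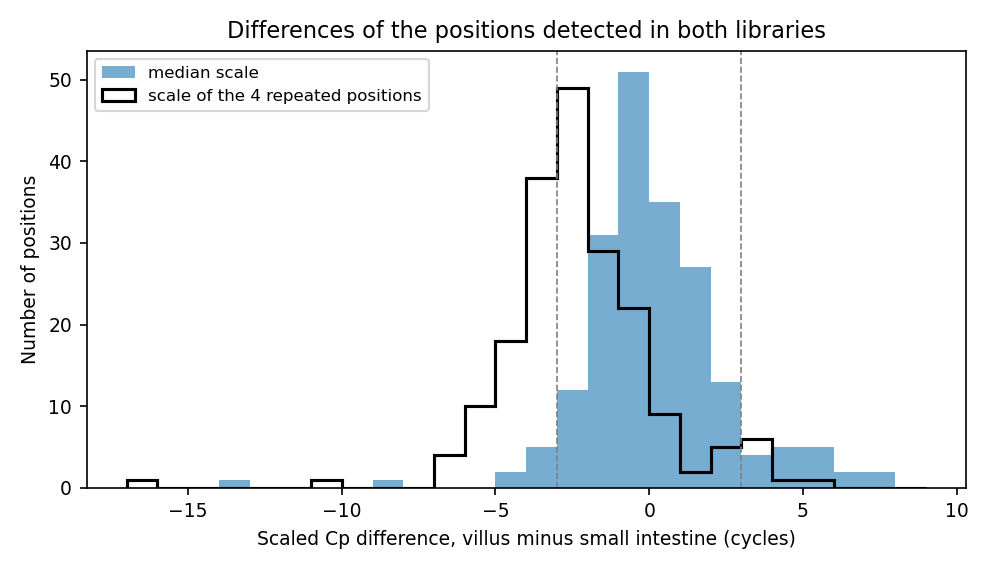
Number of the 196 shared positions (vertical axis) by scaled *C*p difference, villus minus small intestine, in cycles (horizontal axis), for the median scale (filled) and the scale of the 4 repeated positions (line). Dashed lines mark 3 cycles, and the change of scale moves the median from -0.16 to -2.61 cycles.

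Of the 4 earliest positions of the villus library, 3 came far later in small intestine, namely 368, 139, and 214 (ranks 1, 4, and 3 in villus). Position 368 was at *C*p 28.4 in small intestine and 10.3 in villus, the earliest value of any position in villus, a scaled difference of -13.8 cycles. Position 139 was at 28.7 in small intestine and 16.3 in villus, a scaled difference of -8.11 cycles. Position 214 was undetected in small intestine (38.9) and at 16.3 in villus, which is a bound of -14.4 scaled cycles. All 3 rest on 1 villus library.

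These 3 positions differed in how the other libraries measured them. Position 368 was detected in all 11 other tissues, from 24.7 in spleen to 31.0 in liver with a median of 29.5. Among the other compartments it was at 19.97 in bronchial gland, 25.9 in mammary gland, 29.97 in proximal tubule, and 30.9 in glomerulus. Position 139 was likewise detected in all 11 tissues, from 23.1 in bile duct to 32.3 in pancreas, and it was at 19.0 in bronchial gland, 20.4 in mammary gland, and 25.9 in both kidney compartments. Position 214 was detected in only 1 of the 11 tissues, skeletal muscle (32.1), and in only 1 other compartment, bronchial gland (34.4). An early value in villus thus went with wide detection at 368 and 139 and with almost none elsewhere at 214. Among the 12 tissues, unscaled *C*p of small intestine had rank 4 from the earliest at position 368 and rank 10 at 139.

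Other positions were detected in villus but not in small intestine. Position 128 was at 20.9 in villus and listed at 50 in small intestine, a bound of -9.84 scaled cycles, and it was at 23.5 in bile duct and 22.2 in mammary gland. Position 239 was at 26.2 in villus and at 50 in small intestine (bound -4.47 cycles), and position 333 was at 26.8 and 50 (bound -3.88 cycles). Position 239 was detected in 6 of the 11 other tissues and position 333 in 9. Position 308 was at 27.9 in villus and listed at 50 in all other 16 libraries of card A. Its bound was -2.80 cycles, and the remaining 16 villus-only positions, at *C*p from 29.5 to 34.98, had bounds from -1.22 to 4.27 cycles, so that these 17 were not called. Of all 21 villus-only positions, 2 were detected in none of the other 11 tissues.

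**Figure D3:**
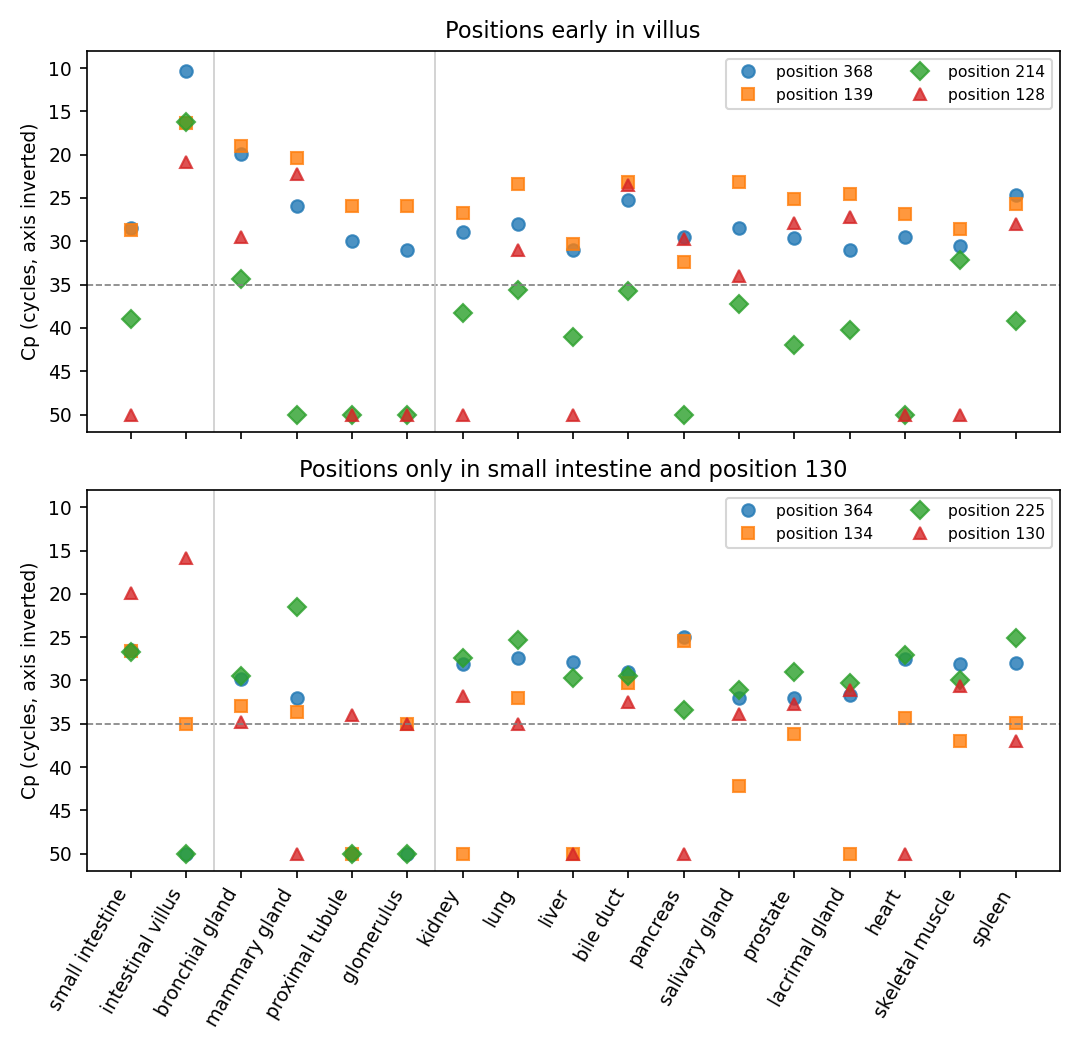
*C*p (cycles, vertical axis inverted so that more template is higher) in the 17 libraries of card A at positions 368, 139, 214, and 128 (upper panel) and at 364, 134, 225, and 130 (lower panel). The dashed line is the limit of 35; position 368 reaches 10.3 in villus, and positions 364 and 225 are at 50 in villus while detected in all 12 tissues.

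Most of the 9 positions called earlier in villus, which include 368 and 139, were also earlier in the microdissected library of the reference pairs. After scaling, all 9 positions called earlier in villus were also earlier in bronchial gland than in lung, as were 108 of the 187 shared positions measured in that pair. In proximal tubule against kidney it was 7 of 9, against 103 of 162, and in glomerulus against kidney 6 of 8, against 77 of 153. Position 25 was at 30.2 in small intestine and 21.7 in villus, a difference of -4.24 cycles, with -4.04 in the airway pair, -3.27 in proximal tubule against kidney, and -3.53 in glomerulus against kidney. Position 376 (27.5 and 19.0) differed by -4.20 cycles, with -3.12, -3.61, and -2.86 in the same order of references. Position 1 (28.8 and 20.9) differed by -3.69 cycles, with -3.21, -4.04, and -4.42. At position 1 the intestinal difference lay inside the range of the references, and at 25 and 376 its gap to the lowest reference was -0.20 and -0.59 cycles. Position 164 differed by -3.67 cycles, with references between -3.36 and -2.53, and position 78 by -3.41, with references between -2.53 and -2.30. Of the 8 positions called earlier in villus and detected in all 7 libraries of the 4 pairs, 6 were earlier in all 3 references, 5 by at least 2 cycles, and 2 (368 and 139) were beyond every reference by at least 1 cycle. Position 382 was undetected in glomerulus, and its difference was -3.41 cycles in the intestinal pair, -10.2 in the airway pair, and 0.70 in proximal tubule against kidney. Position 106 differed by -3.15 cycles, with -2.79 and -2.35 in airway and proximal tubule but 0.43 in glomerulus.

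**Figure D4:**
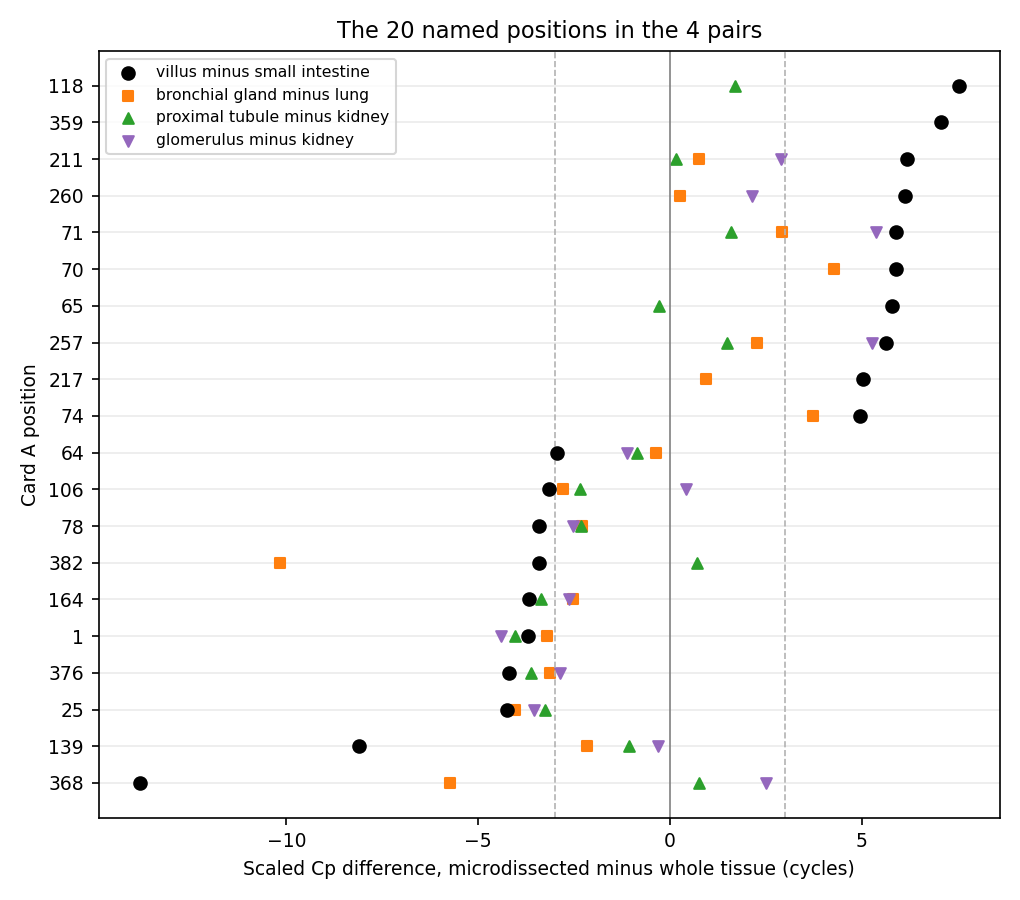
Scaled *C*p difference, microdissected minus whole tissue (horizontal axis, cycles), at the 10 positions earliest and the 10 latest in villus (vertical axis, position number), for the 4 pairs; a missing symbol means that the position was undetected in a library of that pair. Positions 25, 376, 1, 164, and 78 have all 4 symbols between -4.42 and -2.30 cycles, whereas at 368 and 139 the villus stands apart.

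The calls were also counted by the level of a position. In 4 groups of 49 shared positions by mean *C*p of the 2 libraries, earliest first, 1, 1, 6, and 10 were called later in villus. Those called earlier were 4, 4, 1, and 0, and the median differences -0.33, -0.64, 0.78, and 1.34 cycles. The SD of *C*p was 4.40 cycles in villus and 3.42 in small intestine, which median scaling does not change. The mean holds both values of the difference, and villus spread more widely. Later calls therefore tend to fall in late groups by construction, and the trend is no separate result about level. By small intestine alone, the 18 positions called later in villus had a median *C*p of 29.7 and the 9 called earlier 28.8, against 29.0 for all 196. At the 10 with the largest differences, *C*p was from 25.8 to 33.8 in small intestine and from 27.1 to 34.5 in villus, and all 10 came later in villus even without scaling, by 0.671 to 3.25 cycles. Position 118 was at 31.3 in small intestine and 34.5 in villus, a scaled difference of 7.54 cycles, or 5.09 cycles on the scale of the repeated positions. Position 359 was at 29.6 and 32.4, a difference of 7.06 cycles, and small intestine was the earliest of the 12 tissues there. Position 211 was at 31.5 and 33.4, a difference of 6.18 cycles, against 0.749, 0.155, and 2.91 cycles in the airway, proximal tubule, and glomerulus pairs. Position 211 was 3.27 cycles beyond the highest of its references, the largest such gap among the 147 positions detected in all 7 libraries of the 4 pairs. Position 257 (25.8 and 27.1) differed by 5.63 cycles and position 71 (30.1 and 31.7) by 5.91 cycles, and the glomerulus pair reached 5.27 and 5.39 cycles at the same positions. An early position was also among the 18 called, position 329, which had rank 3 in small intestine (21.8) and rank 33 in villus (20.7), a difference of 3.22 cycles.

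Of the 18 positions called later in villus, 14 came later without scaling too, with unscaled differences from -1.26 to 3.25 cycles, a range whose lower end the call itself sets. The sources used here do not say whether every assay of the card was among those preamplified, and the part of this in the 18 positions was not tested. In the airway pair 13 of the 14 that could be measured were above 0 (92.9%), against 42.2% of the shared positions measured in that pair. In the glomerulus pair it was 6 of 8 (75%, against 49.7%), and in the proximal tubule pair 5 of 8 (62.5%, against 36.4%).

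For the 39 positions detected only in small intestine, the difference is known only as a bound. Subtracting the shift of -4.29 cycles between the 2 library medians raises each bound on the median scale. Every position detected only in small intestine therefore passed 3 cycles on that scale, whatever its *C*p there. Taking undetected wells at 35, the bounds were from 4.30 to 12.8 cycles with a median of 7.26, and from 1.85 to 10.3 cycles on the scale of the repeated positions, where 28 of the 39 were at least 3. With these bounds, 57 of the 256 positions detected in at least 1 library were at least 3 cycles later in villus (22.3%) and 13 earlier (5.08%). All 39 are among the 57 by construction, so the 2 shares do not measure a direction. In villus 36 of the 39 wells were listed at 50, and the others were at 35.03 (position 134), 35.7 (189), and 36.8 (105).

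Position 364 was the earliest of them, at 26.5 in small intestine and at 50 in villus, a bound of 12.8 cycles on the median scale and 10.3 on that of the repeated positions. It was detected in all 11 other tissues, from 24.9 in pancreas to 32.05 in salivary gland, and at 29.8 in bronchial gland and 32.02 in mammary gland, but at 50 in both kidney compartments. Position 225 was lost in the same 3 compartments, at 26.7 in small intestine and at 50 in villus, proximal tubule, and glomerulus, with 29.5 in bronchial gland and 21.5 in mammary gland. Position 270 was at 28.5 in small intestine and 50 in villus, but it was detected in all 4 other compartments from 28.6 to 34.0. At positions 134 and 133 pancreas was the earliest tissue. Position 134 was at 26.6 in small intestine and 25.5 in pancreas, and the median of the 11 other tissues was undetected at 36.2. Position 133 was at 28.8 in small intestine and 28.7 in pancreas, and it was detected in 3 of the 11 tissues and in no compartment. Position 57, at 29.0 in small intestine and 26.7 in pancreas, was detected in villus (29.5) with a difference of 4.79 cycles.

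Part of this loss was shared with the other compartments. Of the 39 positions, 27 were also detected in kidney, and 20 of these (74.1%) were undetected in proximal tubule and 19 (70.4%) in glomerulus. Over all 239 positions of kidney the shares were 25.1% and 28.5%. In lung 28 of the 39 were detected, and 8 of these (28.6%) were undetected in bronchial gland, against 10.0% of the 249 positions of lung. In these libraries the share lost was thus higher among the 39 than among all positions of the tissue. Microdissection and preamplification cannot be told apart there. The 39 were also late in small intestine, with a median *C*p of 32.03, against 28.97 for the 196 shared positions. Positions were not matched by level in this comparison, and the part of level in these shares was not tested. Of the 39, 5 were detected in all 4 other compartments and 9 in none.

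Position by position, the intestinal difference went partly with those of the reference pairs. Over the 147 positions detected in all 7 libraries, its Spearman correlation was 0.509 with the airway pair, 0.405 with the proximal tubule pair, and 0.365 with the glomerulus pair, described across positions that share the card and the preparation. At 85 of the 147 positions the intestinal difference lay inside the range of the 3 references. It was below all 3 by at least 1 cycle at 8 positions (5.44%) and above all 3 at 11 (7.48%), together 12.9%. The same count for the airway pair against the other 3 was 22 and 19, for the proximal tubule pair 8 and 10, and for the glomerulus pair 9 and 21, so the intestinal pair stood apart no more often than the airway or glomerulus pair. On the scale of the repeated positions the counts were 27 below and 4 above. After 368 and 139, the positions farthest below the references were 64 (-2.93 cycles, a gap of -1.82 to the lowest reference), 349 (-0.85, a gap of -1.64), and 30 (-2.76, a gap of -1.502). After 211, those farthest above were 124 (3.59 cycles, 2.38 above the highest reference), 8 (1.83, 2.26 above), 218 (1.36, 1.88 above), and 69 (2.05, 1.82 above).

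Heart and skeletal muscle, which are outside the pair, mark a set of positions. Positions 7, 8, 69, and 70 had these 2 tissues at least 3 cycles ahead of the other 10 without scaling, a rule chosen after the values were seen. Position 69 was at 17.4 in heart and 16.47 in skeletal muscle, 25.7 in small intestine, and 23.5 in villus, a difference of 2.05 cycles. Position 70 was at 19.9 in heart and 19.3 in skeletal muscle, 27.0 in small intestine, and 28.6 in villus, a difference of 5.90 cycles. Positions 7 and 8 differed by 3.03 and 1.83 cycles. In bronchial gland against lung the differences at 7, 8, 69, and 70 were 3.24, -0.44, 0.23, and 4.29 cycles, so 7 and 70 were later in both pairs. All 4 were later in villus than in small intestine on the median scale, but on the scale of the repeated positions 8 and 69 turned to -0.62 and -0.40 cycles, while 7 and 70 stayed at 0.58 and 3.45. The difference was also set against scaled *C*p in heart and skeletal muscle minus that in 8 tubular tissues. A negative correlation means that positions earlier in muscle tended to be later in villus. Across all 196 positions, the Spearman correlations were -0.261 with this measure and 0.0243 with the same measure for spleen. With a detection limit of 32 (148 positions) they were -0.124 and 0.113. Of the 18 positions later in villus, 11 (61.1%) were earlier in muscle than in these tubular tissues, and so were 62.1% of the 169 positions that differed by under 3 cycles, with medians of -1.07 and -0.61 cycles.

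Small intestine and villus were each compared with libraries that the other did not use, small intestine with the 11 other tissues and villus with the 4 other compartments, on a scale of the 78 positions detected in all 17 libraries and with undetected wells at 35. The 196 positions had to be detected in both intestinal libraries but not elsewhere, which favours low values on both measures, so the counts are a description. Small intestine was at least 3 cycles earlier than the mean of the other tissues at 11 positions and villus earlier than the mean of the other compartments at 21, and 7 positions were in both.

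Position 130 had the largest differences of these 7. It was the earliest position of small intestine (19.9) and had rank 2 in villus (15.8), a scaled difference of 0.19 cycles. The earliest other tissue was skeletal muscle (30.7), and the other compartments were at 34.0 in proximal tubule, 34.8 in bronchial gland, 35.01 in glomerulus, and 50 in mammary gland. Without scaling, no library of the card outside the pair came within 10 cycles of small intestine at this position. Position 107 was at 22.5 in small intestine and 18.0 in villus, position 104 at 22.5 and 17.1, and position 120 at 23.8 and 18.5. The kidney was the next tissue at all 3 (25.1, 23.2, and 25.9). The proximal tubule was the next compartment at 107 and 104 (23.96 and 21.96), while bronchial gland was at 120 (22.8). Position 311 was at 30.1 in small intestine and 25.6 in villus, and only liver (29.1) was earlier among the tissues. Position 374 was at 24.6 in small intestine and 20.9 in villus, but bile duct (22.8) was earlier among the tissues and bronchial gland (17.4) among the compartments. With position 57, described above, the 7 positions differed between villus and small intestine by -1.04 to 4.79 scaled cycles, and the scale of the repeated positions lowers each by 2.45 cycles. At 65 and 359 the difference of villus from the other compartments was -0.20 and -0.56 cycles, and that of small intestine from the other tissues was -4.74 and -3.65 cycles. With undetected wells at 35, these are upper bounds. Position 359 was at 32.4 in villus and undetected in all other compartments (35.96 to 40.98), and position 65 was detected in 2 of them.

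**Figure D5:**
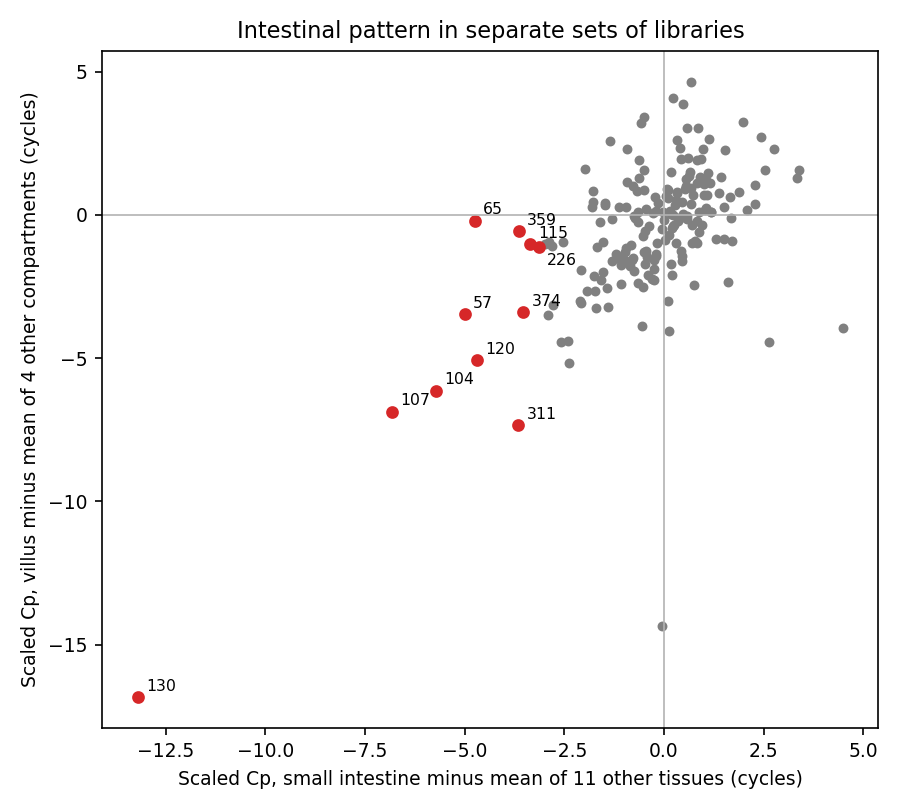
Scaled *C*p of small intestine minus the mean of the 11 other tissues (horizontal axis, cycles) against villus minus the mean of the 4 other compartments (vertical axis, cycles) at the 196 shared positions, with the 11 positions at -3 or less on the horizontal axis in red. Position 130 is at -13.2 and -16.8. Undetected wells stand at 35, so a value is an upper bound wherever another library was undetected. This holds on both axes at positions 130, 57, 311, 65, and 359, including the values near 0 at 65 and 359.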

How the data were processed

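RNA of 12 tissues and 5 microdissected compartments was measured on TaqMan cards, and card A is used here, with 1 library per sample. The authors read *C*p (a PCR cycle number, not a count or ratio) with SDS and RQ Manager, and the non-normalized values they deposited are used. Software versions are not given in the sources used here. Columns were matched to samples by the sample numbers in the labels. *C*p above 35 was undetected, positions 11, 12, 35, and 36 were left out, and each library was scaled to its median over the positions detected in both of a pair. The positions named are the 10 lowest and 10 highest differences, the 5 earliest detected in only 1 library, and the 5 farthest below and above the references. Others were named after their values were seen. Members, lists, and rules were chosen with earlier results of these data known. Shares carry 95% Wilson intervals, for counting error only. Lists of named miRNAs were not used, because positions have no names in the files. Shifts larger than the call size, planted at early positions in a noisy copy of the small intestine column, were recovered. This checks the calculation only and says nothing about the calls reported here. Other scales, limits, call sizes, and reference sets were tried. Card B was not used here. The series' design names a rodent kit, and the label protocol a human one. Scripts ran under Python 3.11.15 (matplotlib 3.10.9, scipy 1.17.1, pandas 2.3.3, numpy 2.4.6).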

Additional observations from a re-analysis of the deposited data

Results flagged for a closer look

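Position 124 moved in opposite directions by at least 3 cycles in 2 organs on the median scale. It was later in villus than in small intestine (3.59 cycles), and earlier in proximal tubule and in glomerulus than in kidney (-4.34 and -4.58 cycles). In the airway pair, bronchial gland against lung, the difference was 1.21 cycles. On the scale of the repeated positions, applied to this position after the values were seen, the intestinal value was 1.14 cycles, under 3. The kidney values were -4.64 and -6.63 cycles there, and the airway value was -0.985 cycles. Both kidney values use the same kidney library, each group holds 1 library, and the difference was not tested.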

How the results depend on the processing

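Each other scale moved all differences by 1 common amount, too small to turn the direction of the 20 positions with the largest differences, so their signs show nothing about stability. The counts moved by the construction of each setting, through a common shift, a changed threshold, or a changed set of positions or references. Why the scales differ between libraries was not tested. Positions earlier and later in villus by the set size were 9 and 18. They were 72 and 8 when scaled to the repeated positions, 147 and 1 without scaling (a setting added after the values were seen), 21 and 31 at 2 cycles, and 2 and 9 at 5 cycles. Those earlier were 4 with a limit of 32 and 15 with a limit of 40. Those later were 59 with undetected wells set to 35. Of these, 39 were detected only in small intestine and passed by construction, and 2 were detected only in villus and give an upper bound. Without positions 368, 139, and 214, a setting also added later, the counts were 8 and 16. Positions below and above all references were 8 and 11. They were 27 and 4 on the scale of the repeated positions, 26 and 6 on that of positions up to 28, 17 and 37 with undetected wells at 35, 2 and 3 with a margin of 2 cycles, and 55 and 67 without the kidney pairs, where 1 reference is left. Those below were 15 with the scale of the positions in all 17 libraries and also with mean scaling, 4 with a limit of 32, and 21 with a limit of 40. Those above were 23 without lung and bronchial gland. Positions detected only in villus were 51 with a limit of 32 and 13 with a limit of 40, and those detected only in small intestine were 22 with a limit of 32. In the reference pairs, 31 recomputed counts moved by over 1.5 times and 23 did not. No paired analysis was possible because only 1 library was measured per tissue or compartment.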
